A study of Rattus norvegicus with 31 samples.

Results

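The period and cryptochrome genes and their associated repressors form the negative limb of the circadian clock. In the liver of female Wistar rats (Crl:WI), 9 of these genes were followed: Per1, Per2, Per3, Cry1, Cry2, Ciart, Usp2, Bhlhe40 and Bhlhe41. They were taken by symbol from 26312 genes in the count table. Of the 9, 8 were listed under their own symbol and Ciart under an older one (RGD1566380). All 9 were kept by the filter on low counts (2 or more in total over 31 rats), which left 19904 genes to test. The members were selected on results of these data, mainly on their log2 fold changes in the IMZ + CTD mixture against control. Their values in that mixture are therefore given below as a description without a p-value.

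Total RNA of 1 liver per rat was sequenced after 28 days of daily oral gavage. The 8 controls received the vehicle only (aqueous carboxymethyl-cellulose). Imazalil (IMZ) is an azole fungicide, and thiacloprid (THI) and clothianidin (CTD) are neonicotinoid insecticides. Doses per kg body weight and day were 108 mg THI (4 rats), 93 mg IMZ (4 rats) and 288 mg CTD (3 rats). The study marks the 288 mg CTD group as having lost at least 1 rat, killed when moribund. The mixtures held 54 mg THI with 46 mg IMZ (THI + IMZ, 4 rats), 54 mg THI with 134 mg CTD (THI + CTD, 4 rats) and 46 mg IMZ with 135 mg CTD (IMZ + CTD, 4 rats). All rats were young adults on a fixed light/dark cycle, and the hour at which each rat was killed is not given in the sources used here. Transcripts of clock genes vary over the day, so a difference between groups in these genes and a difference in the hour of killing cannot be told apart.

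In this loop the activators ARNTL and CLOCK bind E-boxes and switch on the Per and Cry genes, whose proteins return to the nucleus and inhibit the same activators. Bhlhe40 and Bhlhe41 (DEC1 and DEC2) occupy E-boxes as repressors, CIART binds the activator complex, and the ubiquitin-specific protease USP2 removes ubiquitin from clock proteins. A second loop, in which REV-ERB proteins (Nr1d1, Nr1d2) repress and ROR proteins activate, acts on Arntl, Npas2 and Cry1. In liver this clock times bile acid, lipid and glucose metabolism, and Per1 is in addition a direct target of the glucocorticoid receptor.

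The E-box is the letter pattern through which these genes are driven, so the matches in the promoters of the members are shown. RefSeq promoter windows of build GRCr8, from 250 bases before to 50 bases after a start site, existed for 8 members and not for Cry1. Both strands were searched, and capitals mark the matches. The window of Per1 belongs to a start site 5374 bases inside the annotated gene, that of Ciart to one 1532 bases inside and that of Usp2 to one 2606 bases inside. The start site for Per3 lies 443 bases from the boundary of the annotated gene. CACGTG, the E-box, was found in 3 of the 8 windows against 6.42% of 33469 windows, CACGTT, a variant E-box, in 2 of 8 against 4.83%, and TTANGTAA, the D-box bound by DBP, TEF, HLF and NFIL3, in 1 of 8 against 2.24%. The letters TGACGTCA (the cyclic AMP element, 1.83% of windows) and TAGGTCA (an element of REV-ERB and ROR, 2.63%) were in none of the 8. The stretches lie at chr9:99497074-99497243 and chr9:99497038-99497067 (Per2, minus strand), chr3:98860538-98860687 (Cry2, minus strand), chr2:186112322-186112351 and chr2:186112258-186112287 (Ciart, minus strand), chr4:143174200-143174349 (Bhlhe40, plus strand) and chr4:180569386-180569415 (Bhlhe41, minus strand).
Per2, D-box 192 bases before the start: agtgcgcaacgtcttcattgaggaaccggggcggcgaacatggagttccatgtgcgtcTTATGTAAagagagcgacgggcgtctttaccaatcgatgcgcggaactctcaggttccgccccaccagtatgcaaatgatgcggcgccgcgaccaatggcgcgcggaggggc
Per2, CACGTT 62 bases before the start: aacgcgcgcggtCACGTTttccactatgtg
Cry2, CACGTT on the other strand 212 bases before the start: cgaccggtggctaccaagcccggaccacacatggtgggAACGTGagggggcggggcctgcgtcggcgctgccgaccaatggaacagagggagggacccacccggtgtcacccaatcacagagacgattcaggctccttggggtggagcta
Ciart, CACGTG 93 bases before the start: tgtatctagagtCACGTGttgccggcaaag
Ciart, CACGTG 35 and 21 bases before the start: gggaggCACGTGcagagccgCACGTGtctg
Bhlhe40, CACGTG 220 bases before the start: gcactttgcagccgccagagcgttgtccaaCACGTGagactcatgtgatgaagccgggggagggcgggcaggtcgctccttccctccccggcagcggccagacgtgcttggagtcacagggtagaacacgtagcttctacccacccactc
Bhlhe41, CACGTG 48 bases before the start: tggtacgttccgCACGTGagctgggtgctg
A match is a description of the letters in these windows. Among the 8 windows searched, that of Ciart held the most E-boxes, and that of Per2 held both a variant E-box and a D-box. Other promoters of these genes were not searched.

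Libraries held 31.8 M to 101 M counts, with medians of 60.5 M in controls and 40.2 M in treated rats. Values below are CPM (counts per 1 M counts of the library) after TMM scaling, which can be compared between rats for 1 gene but not between genes, as they are not divided by transcript length. Markers of hepatocytes (6 genes) summed to 160400 to 250700 CPM in all rats, and those of T and NK cells (5 genes) to 0.546 to 2.15 CPM. In bulk tissue, fewer cells of a type and less RNA per cell cannot be told apart. A gene was called where the adjusted p of edgeR over all genes was under 0.05. The 6 treatments were set against the same 8 controls, so the comparisons with control share those rats.

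The member with the most calls was Per1 (ENSRNOG00000007387), a clock repressor that also answers acute signals within the day. It fell in THI, CTD and THI + IMZ. Controls ranged from 9.99 to 29.4 CPM with a median of 17.4 CPM, and the IMZ rats stood at 18.1, 18.7, 16.7 and 13.3 CPM. All IMZ rats lay inside the control range.

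With THI, Per1 was at 10.3, 4.0, 6.95 and 5.43 CPM, and 3 of the 4 rats were below every control. The log2 fold change was -1.45 ± 0.27 (SE), a level 0.367 times that of controls, with an adjusted p of 0.00403 (edgeR). Per1 was the 1 of 9 members called in THI, where 0.543% of all genes were called.

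With CTD, Per1 stood at 10.4, 9.67 and 7.81 CPM, with 2 of 3 rats below every control. The difference was -0.96 ± 0.29 on the log2 scale (SE, adjusted p = 0.0256 in edgeR). In CTD 2 of 9 members were called, against 12.7% of all genes. Without control replicate 5, the highest of the controls, the adjusted p was 0.0505, and without a CTD rat it lay between 0.065 and 0.11.

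In THI + IMZ, Per1 was at 11, 11.1, 7.10 and 4.12 CPM, and 2 of 4 rats lay below the controls. The log2 fold change of -1.12 ± 0.26 (SE) had an adjusted p of 0.0238 in edgeR. Per1 was the 1 of 9 members called there, where 1.18% of all genes were called. The call was lost without THI + IMZ replicate 3 (adjusted p = 0.103) or replicate 4 (0.117), and in a fit of THI + IMZ and control rats alone (0.0753), where the log2 difference was again -1.12.

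The THI + CTD rats held 9.95, 7.69, 11 and 12.7 CPM of Per1, with 2 of 4 below every control. Their log2 difference of -0.81 ± 0.26 (SE) had an adjusted p of 0.0669 in edgeR. No member was called in THI + CTD, where 4.39% of all genes were, and 1 of 9 had an unadjusted p under 0.05 (17.6% of all genes). That member, Per1, passed with the DESeq2 Wald test (adjusted p = 0.0207), without control replicate 4 (0.029) and without THI + IMZ replicate 4 (0.0418, edgeR).

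In IMZ + CTD, Per1 was at 6.43, 3.92, 8.11 and 9.41 CPM, all below every control. The log2 difference was -1.38 ± 0.27 (SE), or 0.385 times the control level. In the order of group means, Per1 ran from control (18 ± 5.70 CPM, SD, n = 8) and IMZ (16.7 ± 2.41, n = 4) through THI + CTD (10.3 ± 2.08, n = 4), CTD (9.28 ± 1.31, n = 3), THI + IMZ (8.34 ± 3.38, n = 4) and IMZ + CTD (6.97 ± 2.37, n = 4) to THI (6.67 ± 2.70, n = 4). The only neighbours in this order whose rats did not overlap were IMZ and THI + CTD.

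**Figure D1:**
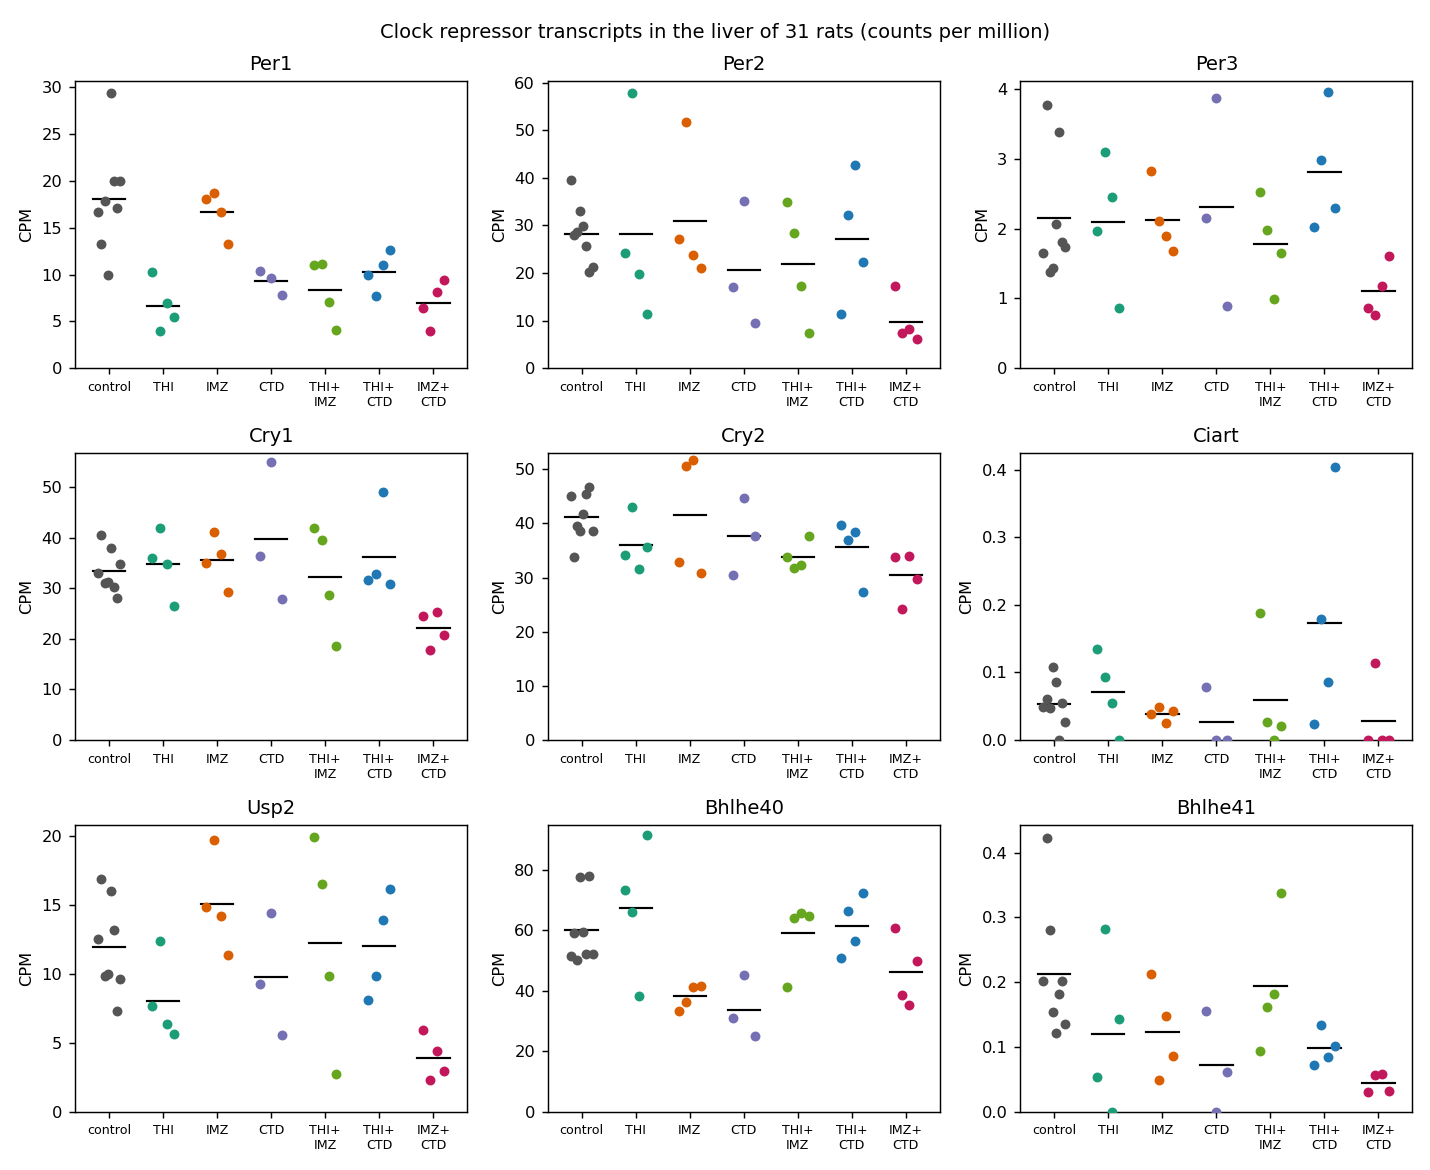
Normalized level in CPM (vertical axes, each starting at 0) of the 9 members in each of 31 rats by treatment group; points are rats and horizontal bars are group means. Per1 lies between 9.99 and 29.4 CPM in controls and between 3.92 and 12.7 CPM in every treated group but IMZ, and Ciart and Bhlhe41 are below 0.5 CPM throughout.

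Per2 (ENSRNOG00000020254) is the period gene whose loss stops the clock most clearly. On the log2 scale it varied more from rat to rat than Per1 within each treated group, but less within controls. Controls ranged from 20.2 to 39.5 CPM with a median of 28.4 CPM. No single compound moved it past the test. The THI rats stood at 24.2, 57.8, 19.8 and 11.4 CPM, a range from below to above every control.

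Rats given IMZ had 27.2, 51.7, 23.9 and 21 CPM of Per2, and CTD rats had 17, 35.1 and 9.51 CPM. The log2 differences were 0.00 ± 0.39 in THI, 0.13 ± 0.38 in IMZ and -0.46 ± 0.44 in CTD (SE, adjusted p in edgeR between 0.551 and 1). With an SE this large, a change of similar size in Per2 was not detectable with these rats.

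Among the mixtures, Per2 was at 35.0, 28.5, 17.2 and 7.35 CPM in THI + IMZ and at 11.3, 32.2, 42.7 and 22.2 CPM in THI + CTD, overlapping the controls. In IMZ + CTD it was at 17.3, 7.32, 8.32 and 6.13 CPM, and all 4 rats lay below every control. The log2 difference there was -1.54 ± 0.42 (SE).

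Per3 (ENSRNOG00000018413), a period gene that is not required for rhythm, ranged from 1.38 to 3.77 CPM in controls. The IMZ + CTD rats had 0.861, 0.766, 1.18 and 1.61 CPM, 3 of them below every control, with a log2 difference of -0.96 ± 0.36 (SE). In the other treatments the log2 difference lay between -0.26 in THI + IMZ and 0.40 in THI + CTD, and none passed the test.

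The cryptochromes, the strongest inhibitors of the activator pair, varied less over all rats than the period genes. Their SD over the 31 rats on the log2 scale was 0.37 for Cry1 and 0.26 for Cry2, against 0.73 for Per1 and 0.84 for Per2. This SD includes the differences between treatments, also those in IMZ + CTD. Within controls it was 0.18 for Cry1, 0.16 for Cry2, 0.45 for Per1 and 0.32 for Per2. Within CTD it was 0.49, 0.28, 0.21 and 0.94 in the same order. Neither passed the test in any of THI, IMZ, CTD, THI + IMZ or THI + CTD.

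Cry1 (ENSRNOG00000006622) was at 28.1 to 40.6 CPM in controls, with a median of 32.1 CPM. The IMZ + CTD rats stood at 24.4, 17.9, 25.2 and 20.8 CPM, all below every control, with a log2 difference of -0.59 ± 0.18 (SE). THI + IMZ replicate 4, at 18.6 CPM, also lay below the controls, while the highest value of all rats was 54.9 CPM in CTD replicate 2. The log2 differences were 0.06 ± 0.17 in THI, 0.09 ± 0.17 in IMZ and 0.25 ± 0.19 in CTD (SE).

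Cry2 (ENSRNOG00000007478) ranged from 33.9 to 46.8 CPM in controls. In IMZ + CTD it was at 33.7, 24.2, 33.9 and 29.7 CPM, 3 of 4 below every control, and its log2 difference was -0.44 ± 0.13 (SE). THI + IMZ rats were at 33.8, 31.8, 32.2 and 37.6 CPM, with a log2 difference of -0.29 ± 0.13 (SE, adjusted p = 0.413 in edgeR). In IMZ the rats were split into 50.5 and 51.7 CPM against 32.9 and 30.9 CPM, on either side of the control range.

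Usp2 (ENSRNOG00000006663) codes for the deubiquitinase of this group. Controls ranged from 7.33 to 16.9 CPM with a median of 11.3 CPM. In IMZ + CTD it was at 5.91, 2.33, 4.41 and 2.92 CPM, all below every control, with a log2 difference of -1.62 ± 0.36 (SE), a level 0.326 times that of controls. The THI rats had 7.71, 12.4, 6.40 and 5.67 CPM, and their log2 difference was -0.56 ± 0.33 (SE, adjusted p = 0.67 in edgeR).

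In THI + IMZ the spread of Usp2 was wide, from 20.0 CPM in replicate 1 through 16.5 and 9.85 to 2.75 CPM in replicate 4. That same rat had the lowest Per2 and Cry1 of its group. In THI + CTD the rats held 8.12, 9.88, 13.9 and 16.2 CPM, within the control range. In IMZ they held 14.9, 19.7, 14.2 and 11.4 CPM.

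Bhlhe40 (ENSRNOG00000007152) codes for the E-box repressor DEC1. It fell in CTD, as Per1 did, but was not called in THI or THI + IMZ, where Per1 was. Controls ranged from 50.1 to 78 CPM with a median of 55.7 CPM, and the CTD rats stood at 31.1, 45.2 and 25.1 CPM, all below every control. The log2 fold change was -0.83 ± 0.21 (SE, adjusted p = 0.00736 in edgeR), and every rat lying below the controls was seen for 5.48% of all genes in CTD. The adjusted p was 0.0556 without CTD replicate 1 and 0.072 without replicate 3.

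In IMZ, Bhlhe40 was at 33.4, 36.3, 41.2 and 41.8 CPM, again all below every control, as for 0.553% of all genes. The log2 difference was -0.65 ± 0.19 (SE) with an adjusted p of 0.18 in edgeR. No member was called in IMZ, where 0.251% of all genes were called and 1 of 9 members had an unadjusted p under 0.05 (8.08% of all genes). The DESeq2 Wald test (adjusted p = 0.043) and a fit of IMZ and control rats alone (0.031) placed Bhlhe40 past the threshold.

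With THI the rats had 73.3, 66, 38.2 and 91.7 CPM of Bhlhe40, from below to above the controls. In THI + IMZ they had 41.4, 64.3, 65.7 and 64.8 CPM and in THI + CTD 50.9, 66.5, 56.6 and 72.3 CPM. Both mixtures with THI lay at the control level within the spread, with log2 differences of -0.03 ± 0.18 and 0.04 ± 0.18 (SE). In IMZ + CTD the rats stood at 60.8, 38.6, 35.5 and 49.8 CPM, with a log2 difference of -0.38 ± 0.18 (SE).

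Ciart and Bhlhe41 were hardly detected. Ciart (RGD1566380 in the table) had 0 to 16 counts per rat with a median of 2, and 8 of 31 rats had none. A floor of 3 counts per library corresponded to 0.0296 to 0.0943 CPM, and at or near this floor no fold change is given. The highest level was 0.405 CPM, in THI + CTD replicate 4, and the other rats of that group had 0.0241, 0.178 and 0.0852 CPM.

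Bhlhe41 (ENSRNOG00000048961), the paralog of Bhlhe40, had 0 to 21 counts with a median of 6 and was at 0 in 2 rats. Controls ranged from 0.122 to 0.422 CPM, and the IMZ + CTD rats had 0.0308, 0.0568, 0.0588 and 0.0321 CPM. All 4 were below every control, but these values lie under the floor of 3 counts, and no fold change is given.

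**Figure D2:**
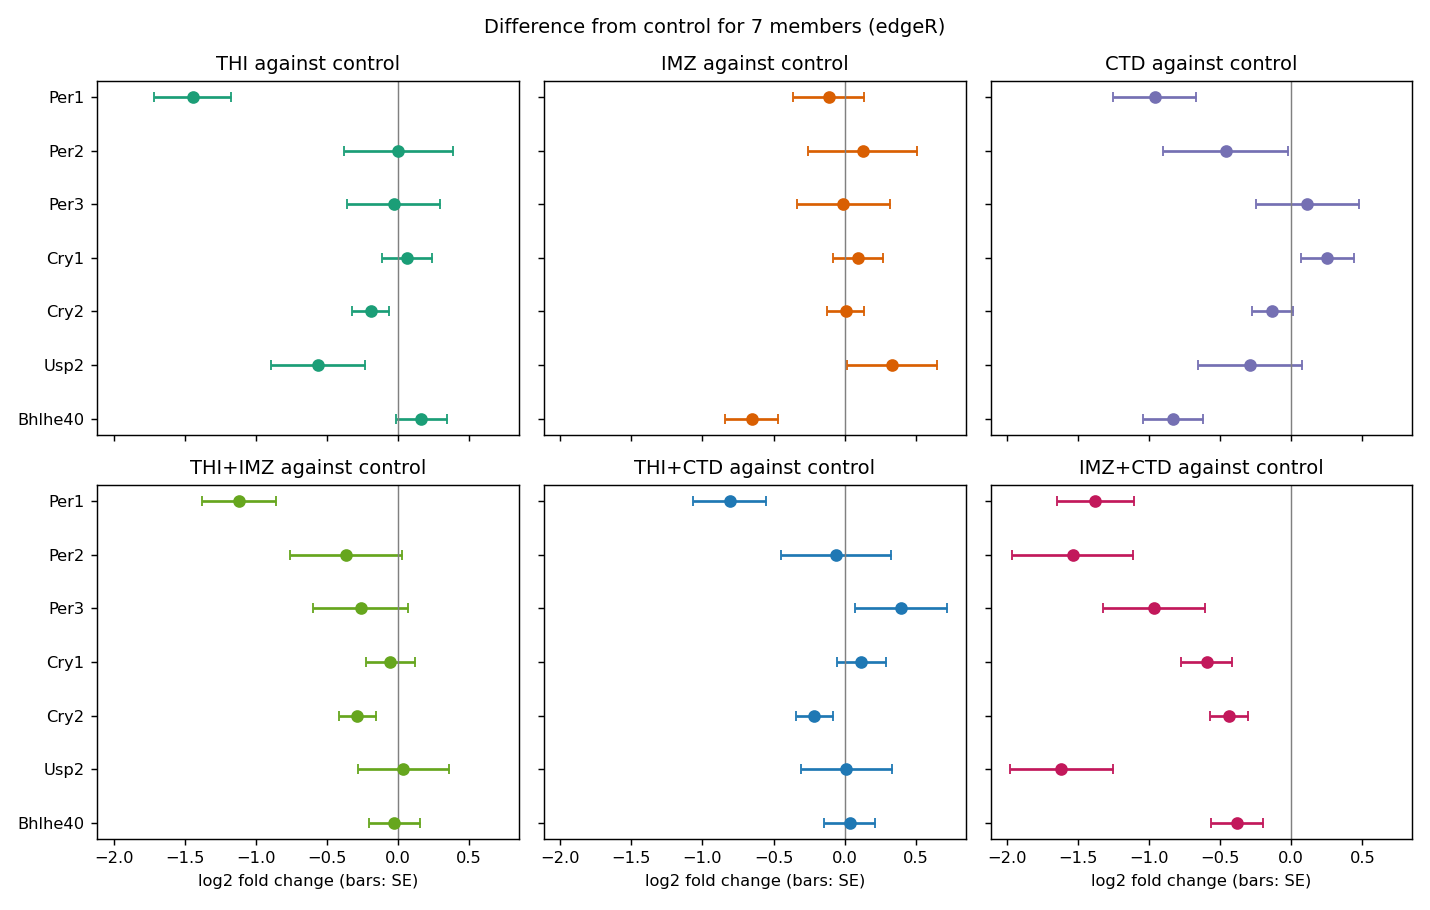
Log2 fold change against control (horizontal axis) of 7 members in 6 treatments, with Ciart and Bhlhe41 left out for their low counts; points are edgeR estimates and bars are SE. Per1 lies left of 0 in THI (-1.45), CTD (-0.96), THI+IMZ (-1.12), THI+CTD (-0.81) and IMZ+CTD (-1.38) and near 0 in IMZ.

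The comparison of IMZ + CTD with control is the one on which the members were proposed, so their shared position there is fixed by that choice. As a description, every IMZ + CTD rat lay below every control for 5 of the 9 (Per1, Per2, Cry1, Usp2 and, under the floor of counts, Bhlhe41) and for 1.12% of all genes. Nothing is read from this count.

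In the other treatments the median log2 difference over the 7 members other than Ciart and Bhlhe41 was -0.03 in THI, 0.01 in IMZ, -0.29 in CTD, -0.26 in THI + IMZ and 0.01 in THI + CTD. The corresponding medians over all genes were between -0.07 and -0.01.

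Each mixture was next set against the dose-weighted sum of its single compounds, with weights of 0.5 for THI, 0.5 for IMZ and 0.47 for CTD. This asks whether the members moved further than the dose shares of the single effects would give. In THI + IMZ and in THI + CTD no member departed from the sum past the threshold, where 0.0151% and 0.286% of all genes did. At an unadjusted p under 0.05, 0 of 9 members did so in THI + IMZ (6.46% of all genes) and 1 of 9, the sparse Ciart, in THI + CTD (9.66%).

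Of the members other than Ciart and Bhlhe41, Per1 had the sums farthest from 0 in both mixtures with THI. Its sum was -0.78 and its log2 change -1.12 in THI + IMZ, a difference of -0.34 ± 0.26 (SE). In THI + CTD the sum was -1.17 and the change -0.81, a difference of 0.37 ± 0.25 (SE). These differences had opposite signs, and neither passed the test (adjusted p = 0.885 and 0.679 in edgeR).

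In IMZ + CTD, as a description, the sums of Per2, Per3, Cry1, Cry2 and Usp2 lay between -0.15 and 0.17. Usp2 had a sum of 0.03 and a log2 change of -1.62, a difference of -1.65 ± 0.37 (SE). For Per2 the sum was -0.15 and the difference -1.39 ± 0.43 (SE). Per3 differed by -1.01 ± 0.37, Per1 by -0.87 ± 0.27, Cry1 by -0.76 ± 0.18 and Cry2 by -0.38 ± 0.14 (SE). Bhlhe40 lay on the other side, with a sum of -0.72, a change of -0.38 and a difference of 0.34 ± 0.18 (SE). These differences contain the IMZ + CTD values that chose the members, so no call is given for them. Over all genes, 1.16% departed from the sum past the threshold in edgeR (230 genes, and between 66 and 285 with 1 rat left out).

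**Figure D3:**
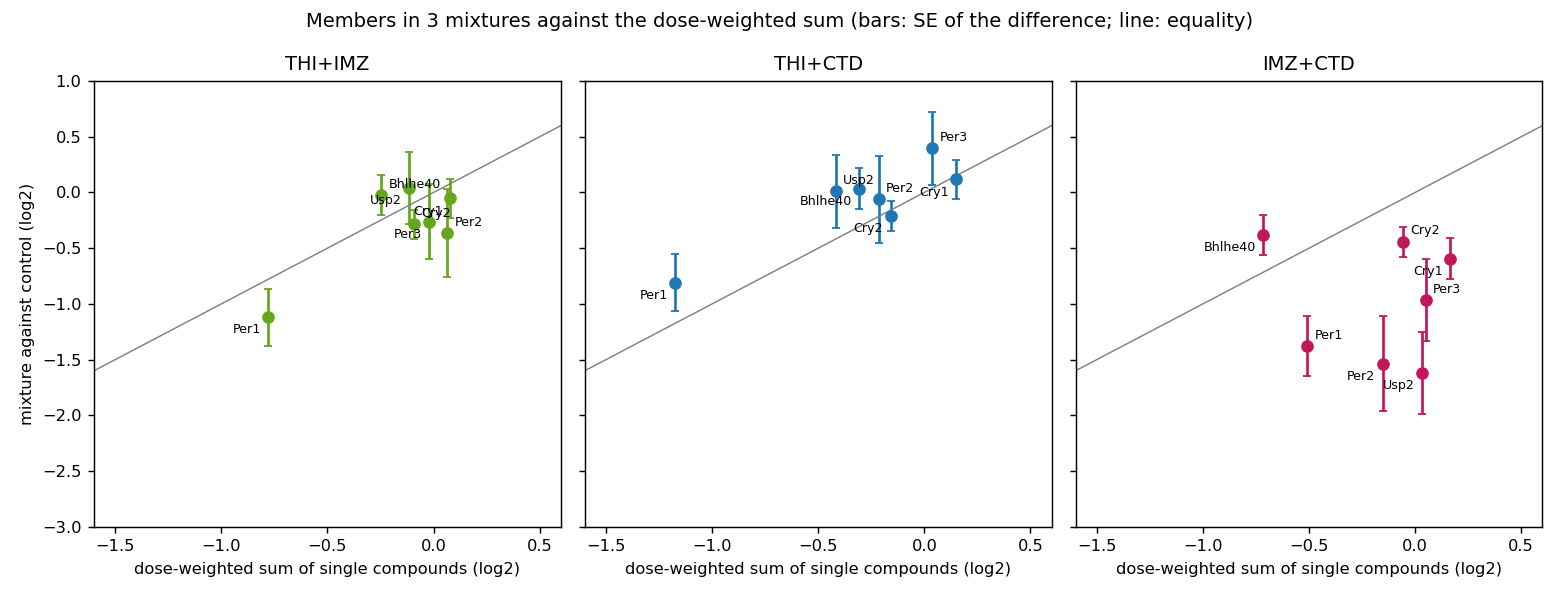
Log2 change against control in each mixture (vertical axis) against the dose-weighted sum of its single compounds (horizontal axis) for 7 members; bars are the SE of the difference and the line marks equality. In IMZ+CTD Usp2 lies at a sum of 0.03 and a change of -1.62, below the line, and Bhlhe40 at -0.72 and -0.38, above it.

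The mixtures with the same THI dose but another partner were compared directly, as a contrast of these groups in the fit of all 31 rats. THI + CTD minus THI + IMZ gave 0 of 9 members called, as for 0.171% of all genes, and none with an unadjusted p under 0.05 (10.1% of all genes). The count over all genes, 34, was 0 without THI + IMZ replicate 3 and 109 without THI + IMZ replicate 4. The DESeq2 Wald test called no member either. The differences ran from 0.06 ± 0.21 for Bhlhe40 to 0.66 ± 0.38 for Per3 (log2, SE) among the period genes, the cryptochromes and Bhlhe40, and Usp2 differed by -0.03 ± 0.37. Per1 differed by 0.31 ± 0.29 (SE, adjusted p = 0.743 in edgeR).

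Around the members, the rest of the clock was looked up in lists chosen with earlier results known. Of the activators Arntl, Clock and Npas2, none was called in any treatment. Arntl itself was nearly flat, at 48.8 to 61.9 CPM in all 31 rats. Of the REV-ERB genes, Nr1d2 rose in CTD, where 12.7% of all genes were called, and in IMZ + CTD, where 1.46% were.

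Nr1d2, a REV-ERB repressor, was 0.56 ± 0.19 (SE) higher on the log2 scale in CTD (adjusted p = 0.0461 in edgeR). In IMZ + CTD it was 0.77 ± 0.17 (SE) higher. That value is a description, as the study names Nr1d2 among the clock genes regulated in this mixture. Nr1d1 was not called in any treatment. It ranged from 0.136 to 0.94 CPM in controls and reached 4.16 CPM in THI + IMZ replicate 4 and 3.75 and 2.70 CPM in IMZ + CTD replicates 2 and 4.

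The PAR bZIP factors act on D-boxes, such as the one printed for Per2, and are themselves driven through E-boxes. In IMZ + CTD 3 of 4 fell, beside 1.46% of all genes called. The study reports the inhibition of Dbp, Tef and Hlf in this mixture, and the list was chosen with earlier results known. Their values there are therefore a description without a p-value, and nothing is read from the count. Dbp was at 2.43, 2.30, 2.76 and 2.86 CPM against 4.07 to 7.58 CPM in controls (log2 fold change -1.09 ± 0.18, SE). Hlf changed by -1.0 ± 0.24 and Tef by -0.73 ± 0.18 (SE). Nfil3, which opposes them at D-boxes, fell in CTD (-0.53 ± 0.12) and THI + CTD (-0.50 ± 0.11). Of all genes, 12.7% were called in CTD and 4.39% in THI + CTD.

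Among 7 genes for the turnover of PER and CRY proteins (kinases and ubiquitin ligases), Fbxw11 (0.23 ± 0.08) and Gsk3b (0.35 ± 0.11) rose in CTD and Csnk1e (0.31 ± 0.09) rose in THI + CTD (log2, SE). Of 4 clock-bound partners tested, Nono fell in CTD by 0.45 on the log2 scale. None of these passed the test in THI, IMZ, THI + IMZ or IMZ + CTD. Over all genes, 12.7% were called in CTD and 4.39% in THI + CTD.

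Glucocorticoid targets were counted because Per1 is one. Of 6 genes, 1 fell in THI (0.543% of all genes called), none in IMZ (0.251%), 3 in CTD (12.7%), none in THI + IMZ (1.18%), 3 in THI + CTD (4.39%) and 2 in IMZ + CTD (1.46%). None rose past the threshold. Tsc22d3 (GILZ) fell in THI (-0.84 ± 0.16), CTD (-0.55 ± 0.18), THI + CTD (-0.56 ± 0.16) and IMZ + CTD (-0.66 ± 0.16, log2, SE). Its IMZ rats stood at 74.8, 81.0, 69.1 and 46.3 CPM, within or just below the control range of 56.4 to 112 CPM. Tat fell in CTD (-0.93 ± 0.25) and THI + CTD (-0.96 ± 0.22), and Dusp1 fell in CTD (-1.6 ± 0.30). Zbtb16 fell in THI + CTD (-0.94 ± 0.28) and IMZ + CTD (-1.44 ± 0.29). In THI + IMZ the Zbtb16 level was 20.4 to 34.5 CPM, above all controls (9.19 to 17.6 CPM), with a log2 difference of 0.97 ± 0.25 (SE, adjusted p = 0.0521 in edgeR). The difference of THI + CTD from THI + IMZ, -1.91 on the log2 scale, holds both of these displacements. Fkbp5 and Sgk1, also on the list, were not called in any treatment, so the list did not fall as a whole. Mean Fkbp5 was 7.77 CPM in controls and ran from 7.1 CPM in IMZ to 9.3 CPM in CTD. Mean Sgk1 was 17.15 CPM in controls and ran from 13.82 CPM in THI to 17.62 CPM in CTD.

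Which genes ran most like each member was measured as the smallest root mean square difference of centred log2 CPM over the 31 rats, among 10876 genes. Each gene was centred on its mean over all rats, so the distance includes the differences between treatments. Those in IMZ + CTD, on which the members were selected, are among them, so nearness between members is partly set by that choice. The gene nearest to Per1 was Tsc22d3 (0.465), followed by Tp53inp1 (0.516). Per2 and Usp2 were nearest to each other (0.426), with Rtn4rl2 next for Usp2 (0.516). Per3 was nearest to Tef (0.400) and Lonrf3 (0.409). For the sparse Ciart the nearest were Rrp12 and Tnfrsf12a and for Bhlhe41 Fam105a and Palm. Cry1, Cry2 and Bhlhe40 varied too little over the rats (SD of log2 CPM up to 0.44) for the rule to name any gene.

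Relations among rats of the same group were examined on values centred on their group means, which takes out the treatment differences. Centring does not take out a difference in the hour of killing between rats of the same group. The part of that hour in the relations below was not tested. Against Arntl, in a two-sided permutation test of 100000 resamples within groups, none of the 9 members passed after adjustment over 19903 genes, as for 0% of all genes. At an unadjusted permutation p under 0.05, 1 of 9 did, beside 4.53% of all genes. That member was Cry1, with Pearson r = 0.42 (p = 0.0337, adjusted over all genes 0.959) and Spearman rho = 0.44 (p = 0.0308) over 31 rats.

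Against Npas2, an activator that partners ARNTL, 5 of 9 members had an unadjusted permutation p under 0.05, beside 17.3% of all genes. None passed after adjustment over all genes, where 0.0201% did. Usp2 had r = -0.73 (permutation p = 0.00011, adjusted over all genes 0.0543) and rho = -0.64 (p = 0.00096), and r = -0.59 without the 2 rats farthest out. For Cry1 r was -0.65 (p = 0.00139, adjusted 0.0719) and rho -0.59 (p = 0.0047), with r = -0.48 without those rats. For Per2 r was -0.59 (p = 0.00293, adjusted 0.0919) and rho -0.57 (p = 0.00533), with r = -0.57 without them. Per3 had r = -0.44 (p = 0.0211, adjusted 0.197) and rho = -0.40 (p = 0.0443), and Ciart, with its few counts, r = -0.42 (p = 0.0474, adjusted 0.282) and rho = -0.34 (p = 0.098). The sign was negative in all 7 groups for Per2 and Usp2.

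Nr1d1 and Tsc22d3 were added as anchors after the values had been seen, so their relations are given as a description. With Nr1d1, r over 31 rats was -0.65 for Per2, -0.70 for Cry1, -0.64 for Usp2 and -0.47 for Per1. Rats with more Nr1d1 than their group had less Per2, Cry1 and Usp2, and THI + IMZ replicate 4 was the farthest of them. Without that rat and CTD replicate 2, r was -0.48 for Per2, -0.49 for Cry1 and -0.46 for Usp2. Nr1d1 had few counts in some rats. It was at 3 counts, the floor, in CTD replicate 2, at 4 in IMZ replicate 2 and at 5 in control replicate 8. The rats share a library and a depth with both genes of each pair.

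**Figure D4:**
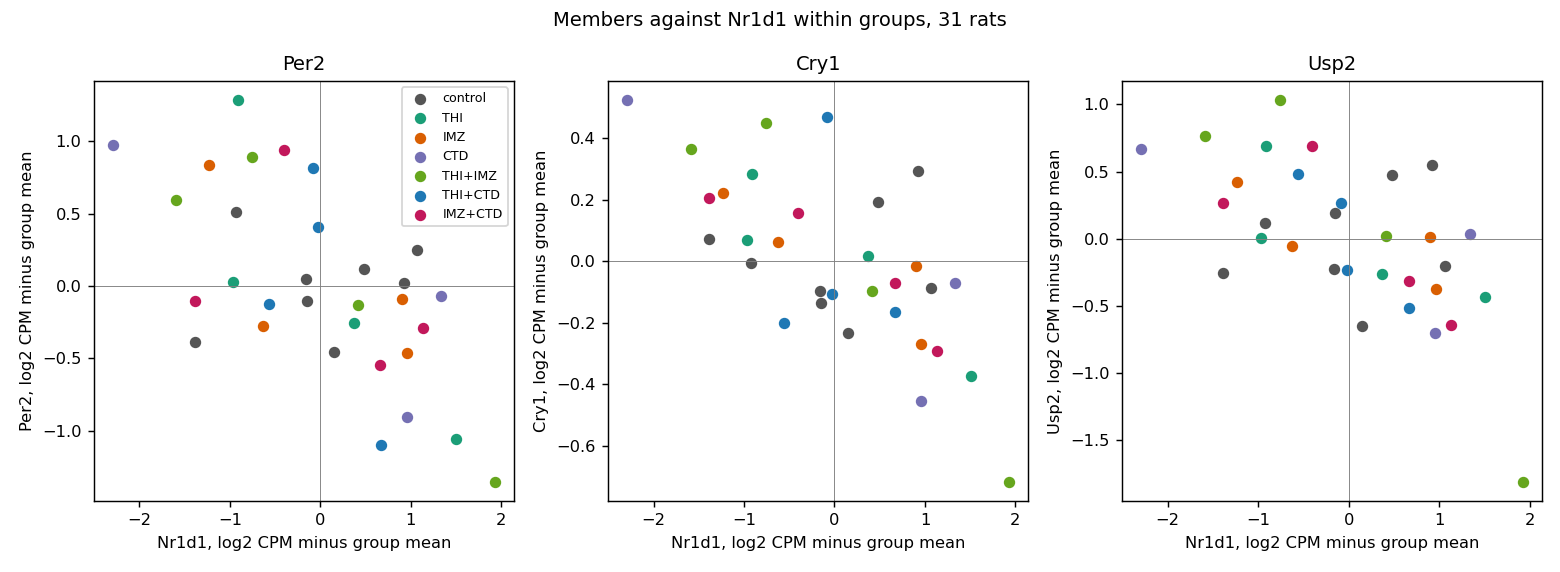
Log2 CPM minus the group mean of Per2, Cry1 and Usp2 (vertical axes) against that of Nr1d1 (horizontal axes) in 31 rats, coloured by group. The points run from upper left to lower right, with r of -0.65, -0.70 and -0.64, and the point at the lower right of each panel is THI+IMZ replicate 4.

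With Tsc22d3, r was 0.65 and rho 0.66 for Per1, and r was 0.58 without the 2 rats farthest out. The sign was positive in 6 of 7 groups. Leaving out any 1 rat gave an r between 0.58 and 0.69. Usp2 came next, with r = 0.33 (0.27 to 0.42 with 1 rat left out). For Per2, Per3, Cry1 and Cry2 r with Tsc22d3 lay between -0.03 and 0.21, and for Ciart, Bhlhe40 and Bhlhe41 it was -0.19. Whether these relations differ from that of Per1 was not tested.

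**Figure D5:**
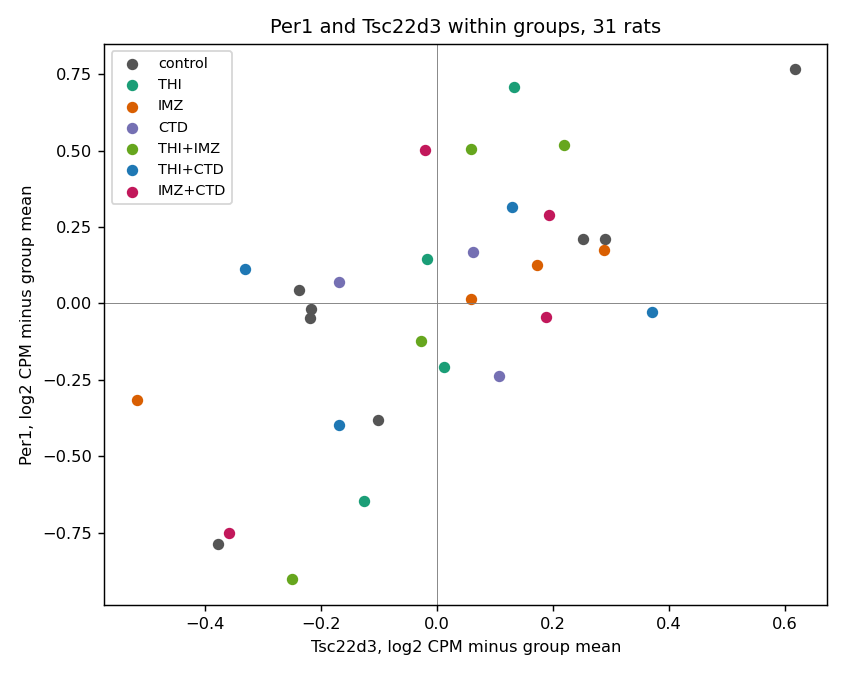
Log2 CPM minus the group mean of Per1 (vertical axis) against that of Tsc22d3 (horizontal axis) in 31 rats, coloured by group. The points run from lower left to upper right, with r of 0.65.

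Markers of other cell types moved with some of these groups. The macrophage list (5 genes) summed to 278 to 451 CPM in controls, 225 to 322 in CTD, 235 to 283 in THI + CTD and 192 to 354 in IMZ + CTD. In the macrophage list 2 of 5 genes were called lower in CTD and 2 of 5 in THI + CTD. Over all genes, 12.7% were called in CTD and 4.39% in THI + CTD. The stellate cell and fibroblast list (5 genes) summed to 331.5 to 454 CPM in CTD and 299 to 429 CPM in THI + CTD, against 201 to 349 CPM in controls, with 1 gene called higher in each (Col3a1 in CTD and Col1a1 in THI + CTD). In the endothelium list (4 genes) Kdr was called lower in CTD (-0.58 ± 0.10) and THI + CTD (-0.34 ± 0.09, log2, SE), and the list summed to 169 to 216 and 183 to 226 CPM against 198 to 272 CPM. In the pancreas list, Cpa1 ranged from 11 to 464 CPM over all rats while Prss1 and Pnlip stayed at or below 0.135 CPM, and the summed level was 194 to 468 CPM in controls and 17.4 to 215 CPM in treated rats. In the pancreas list 1 of 4 genes was called lower in CTD and 1 of 4 in THI + CTD. The part of these cell types in the levels of Per1 and the other members was not tested. The summed hepatocyte list overlapped controls in every treatment. Of its 6 genes, 1 was called higher in THI + IMZ (beside 1.18% of all genes) and 1 lower in THI + CTD (4.39%).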

How the data were processed

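Per the labels and the methods, the authors prepared stranded total RNA libraries, mapped paired-end reads to Rnor_5.0 with STAR 2.5.2b and deposited whole-number counts per gene. The deposited second table holds a signal, these counts divided by DESeq2 1.15.1 size factors, which served as a check. The annotation release and the strand setting of the counting are not given in the sources used here, so reads of overlapping antisense genes may be included. Counts were tested with edgeR 4.0.16 in R 4.3.3 (TMM, quasi-likelihood test, 1 fit with 7 group means, Benjamini-Hochberg over 19904 genes, threshold 0.05). SE is the absolute log2 fold change over the root of F. The pipeline was tested on simulated data. Replicates are rats of 1 group. Total depth was 31.8 M to 101 M counts, and the biological coefficient of variation was 19.4%. Log2 CPM used a prior count of 2. The members and gene lists were chosen with earlier results of these data known. By rule all members, list genes past the threshold (at most 4 per list) and the 2 genes nearest to each member with an SD above 0.5 were named, except a few that are left out here. Alternatives were DESeq2 1.42.0, other filters, fewer groups, a replicate block and leaving out each rat.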

Additional observations from a re-analysis of the deposited data

Results flagged for a closer look

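In 4 of 54 groups of 4 to 8 rats, 1 rat stood apart from the others of its group by Dixon's criterion at the 95% level, which chance gives in about 1 of 20 groups. Cry1 was at 49.1 CPM in THI + CTD replicate 3, while the other rats of the group were at 30.8 to 32.9 CPM. Bhlhe40 was at 41.4 CPM in THI + IMZ replicate 1, against 64.3 to 65.7 CPM in the other rats. Ciart was at 0.187 CPM in THI + IMZ replicate 1, against 0 to 0.0269 CPM, and at 0.114 CPM in IMZ + CTD replicate 2, where the other 3 rats had no count. Both Ciart values rest on a few reads.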

How the results depend on the processing

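Counts of members past the threshold are given for each setting that moved them, and nothing is read from those in IMZ + CTD, which chose the members. With the replicate number as a block, THI went from 1 to 0, CTD from 2 to 1 and THI + IMZ from 1 to 0. With the DESeq2 Wald test IMZ went from 0 to 1, THI + CTD from 0 to 1, IMZ + CTD from 2 to 5 and its departure from the sum from 2 to 4. With the groups compared alone in the fit, IMZ went from 0 to 1, THI + IMZ from 1 to 0, THI + CTD from 0 to 1 and IMZ + CTD from 2 to 5. Leaving out 1 rat at a time gave 0 to 2 in CTD, 0 to 1 in THI + IMZ, 0 to 1 in THI + CTD, 1 to 4 in IMZ + CTD (4 without THI + IMZ replicate 4) and 0 to 2 for its departure from the sum (0 without CTD replicate 2 or IMZ + CTD replicate 2, 3 or 4). The other counts did not move with 1 rat left out. The cause of these changes was not tested.

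Per1 was lost under the block in THI (log2 difference -1.14, adjusted p = 0.0807), CTD (-0.67, 0.181) and THI + IMZ (-0.79, 0.327), and in THI + IMZ with the groups compared alone (-1.12, 0.0753, edgeR). The labels do not say what a replicate number shared by rats of different groups stands for. Over 78 pairs with the same number the correlation of deviations ran from -0.27 to 0.42. The median was 0.02, and 20 were above 0.1. Counted with p-values adjusted over the list alone, which is not independent evidence, Arntl gave 0 of 9 members, Npas2 4, Nr1d1 4 and Tsc22d3 1, the last pair chosen after seeing the data. The sign turned against Arntl for Per2 (-0.59), Per3 (-0.44), Cry1 (-0.65) and Usp2 (-0.73) with Npas2 and for Per1 (-0.47), Per2 (-0.65), Cry1 (-0.70) and Usp2 (-0.64) with Nr1d1.

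Over all genes the block gave 45 calls in THI (108 in the fit reported), 23 in IMZ (50), 1571 in CTD (2518), 53 in THI + IMZ (235), 348 in THI + CTD (873) and 80 in IMZ + CTD (290). The Wald test gave 199 in THI, 150 in IMZ, 435 in THI + IMZ, 1386 in THI + CTD and 567 in IMZ + CTD. For the departures from the sum it gave 54 (3), 174 (57) and 603 (230), and 227 (34) between the mixtures. With the groups compared alone IMZ had 93 and the mixtures 5, with the block the sum of THI + IMZ had 6 and the mixtures 16, and filterByExpr gave 391 for the sum of IMZ + CTD. Leaving out 1 rat moved the count of all genes to between 98 and 366 in IMZ + CTD (98 without its replicate 3), 1470 and 2573 in CTD, 450 and 969 in THI + CTD, 143 and 297 in THI + IMZ, 67 and 120 in THI and 28 and 61 in IMZ. For the departures from the sum it gave 1 to 9 in THI + IMZ, 30 to 75 in THI + CTD and 66 to 285 in IMZ + CTD, and 0 to 109 between the mixtures. filterByExpr removed Ciart, so it has no value there in 10 comparisons. Outside the comparisons of IMZ + CTD, where this was not counted, DESeq2 gave no adjusted p for Ciart in 7 and Bhlhe41 in 3. Depth limits what can be said of both genes.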
